A study of Mus musculus with 6 samples.

Results

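Ameloblasts are the epithelial cells that lay down tooth enamel, and the mouse incisor makes them throughout life. They first secrete a protein matrix and then, in the maturation stage, remove it while they load calcium and phosphate into the growing crystals and buffer the acid that this releases. Inherited defects of many of the genes involved give amelogenesis imperfecta, in which enamel is thin, soft or poorly mineralized. The 8 genes described here were Stim1 and Orai1, which form the store-operated calcium channel; Slc24a4, a sodium, calcium and potassium exchanger; Slc4a4, a sodium bicarbonate cotransporter; Cnnm4, a magnesium transporter; Wdr72, a protein of vesicle traffic; Fam20a, a pseudokinase that activates the secretory kinase Fam20c; and Fam83h, a keratin-associated protein. They were taken by symbol from the gene columns of the estimated count table, in which 8 of 8 were found among 19060 genes.

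The table held 6 samples of proximal incisor from 1 month old mice, taken 1 week after tamoxifen (TMX). The 3 control samples were Fgfr1fl/fl, a floxed allele left intact, and carry the label wild type. The 3 mutant samples were Gli1CreER;Fgfr1fl/fl, labelled Gli1-Cre;Fgfr1fl/fl. Their Cre works only after tamoxifen and only in cells that express Gli1 and in their offspring, so that cells outside this lineage keep Fgfr1. Both groups were floxed and both are given as collected after tamoxifen, and the controls lacked the CreER allele. Nothing in the labels says whether a sample was 1 animal, so p-values measure the spread between these samples.

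The groups differed in depth. Control samples held 32292649, 31060222 and 32712448 counts, and mutant samples 5276557, 11819576 and 11358282. In controls 3.83% to 3.96% of genes were at 0, and in mutants 30.2%, 17.1% and 19.7%. Depth and genotype therefore cannot be told apart by sample. With control counts thinned at random to the mean total of the mutants, the same 3 of the 8 genes passed the test as with all counts, beside 7.72% of all genes lower in that fit. None of the 8 then passed at an adjusted p under 0.05, against 1 with all counts, and Fam20a stood at an edgeR adjusted p of 0.0541. Levels below are in CPM, the count relative to the size of the library, with library sizes scaled by the upper quartile, and a count of 3 was worth 0.0825 to 0.0874 CPM in controls and 0.655, 0.256 and 0.302 CPM in mutants.

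Other tissue also varied within groups. Skeletal muscle genes, led by Acta1, summed to 4.75, 2183 and 19.7 CPM in controls and to 3654, 112 and 650 CPM in mutants, so that control 2 and mutant 1 stood apart. Counts and calls were also read without these 2 samples, which leaves muscle sums of 4.75 and 19.7 CPM in controls and 112 and 650 CPM in mutants, so that muscle RNA then separates the groups. Red cell genes, led by Hbb-bs, summed to 823, 822 and 380 CPM in controls and 1289, 926 and 2559 CPM in mutants, all above the controls, and 1 of these 5 genes fell and 2 rose under the rule given below, by which 8.92% of all genes were lower and 10.9% higher. None of the 5 muscle genes was called. Their part in the results was not tested.

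Fgfr1, the deleted gene (chr8:25513654-25575718, GRCm38), was read first. It measured 529, 924 and 434 CPM in controls and 148, 318 and 262 CPM in mutants, and the groups did not overlap. The log2 fold change was -1.37 with a standard error (SE) of 0.40 (edgeR adjusted p = 0.0881), and -0.74 (SE 0.23) without control 2 and mutant 1. With an added offset for the length and base composition of transcripts, called the length and GC correction below, it was -0.84 (SE 0.32, edgeR adjusted p = 0.241). Whether the count takes in exons outside the floxed part is not given in the sources used here. Gli1, whose promoter drives the CreER, measured 22.6, 23.8 and 33.4 CPM in controls and 10.9, 24.6 and 22.8 CPM in mutants (log2 fold change -0.45, edgeR adjusted p = 0.628).

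To ask whether enamel ion handling genes differed after loss of Fgfr1, each of the 8 was compared between the 3 mutant and the 3 control samples in a fit over all 15826 genes that passed the filter on low counts. All 8 passed it. Values under the length and GC correction are given where it ended a call or moved a value of the 8 by over 1.5 times. A gene was said to fall or rise at an unadjusted p under 0.05 and over 1.5-fold, the selection rule of the study. Fam20a, Stim1 and Orai1 fell, none rose and 5 did not pass. Over all genes tested 19.8% passed this rule, 8.92% as lower and 10.9% as higher. With p adjusted over all genes, 1 of the 8 passed 0.05, Fam20a, against 6.79% of all genes tested, 3.06% as lower and 3.72% as higher. The median log2 fold change of the 8 was -0.78, and that of all genes was -0.040. It was below 0 for 8 of 8 genes and for 8204 of the 15826, and 2 of the 8, Slc24a4 and Wdr72, were close to 0 and turned positive under some settings. With the length and GC correction the median of the 8 was -0.36, against -0.097 over all genes, and 7 of 8 were below 0. Without control 2 and mutant 1 the median was -0.40, against -0.0029 over all genes, and 6 of 8 were below 0.

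**Figure D1:**
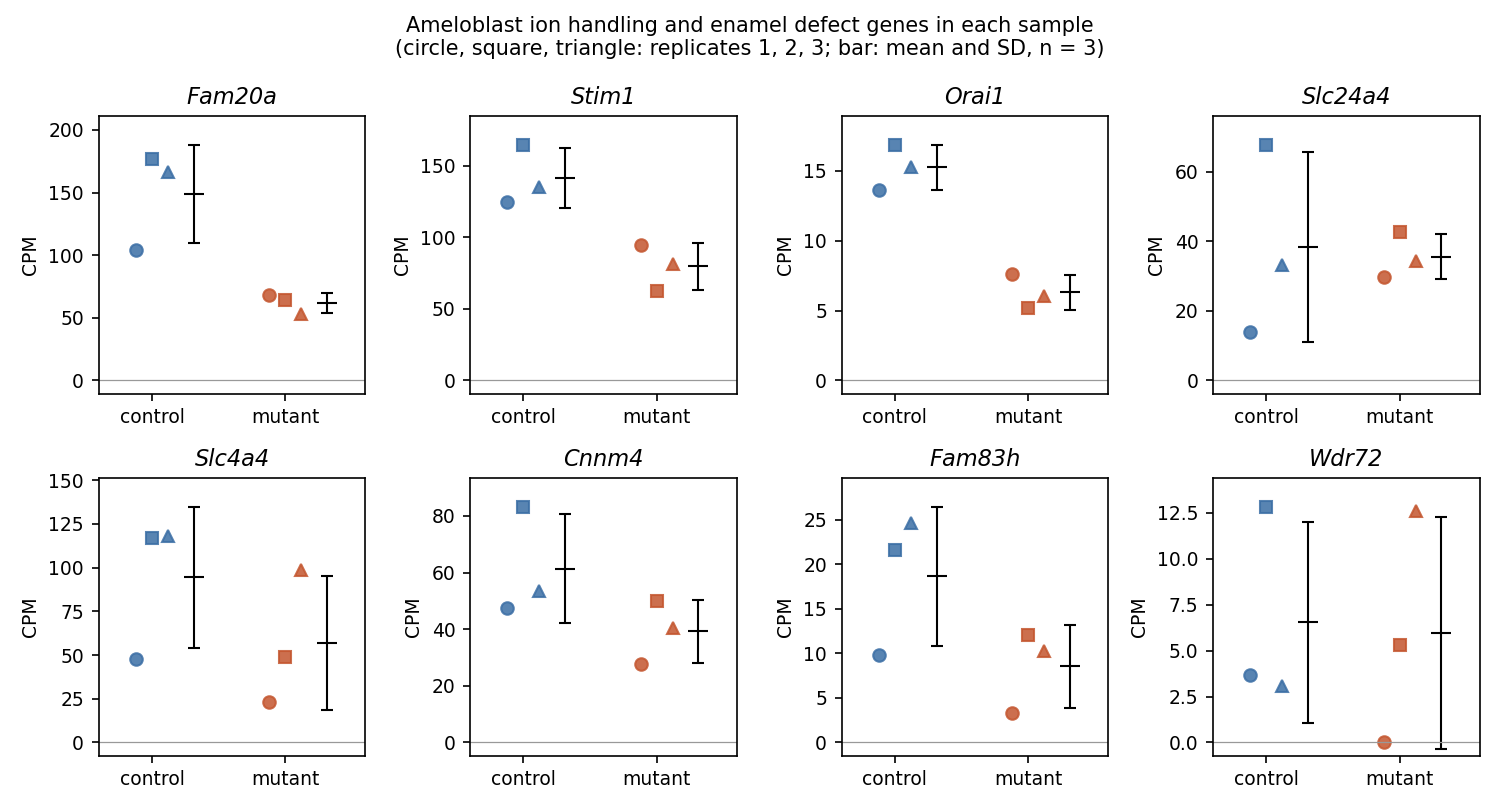
Level of each of the 8 genes (y axis, CPM) in control and mutant samples, with 1 symbol per replicate and the mean and SD at the side. In the panels of Fam20a, Stim1 and Orai1 every mutant sample lies below every control sample, and in the other 5 the groups overlap.

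The 3 genes that fell and Slc24a4, which was close to 0 change, are shown with the bases that precede their RefSeq start, from 250 to 51 bases before it (GRCm38.p6, sequence from RefSeq), as the promoters of the genes that fell and of 1 that did not pass. RefSeq promoters were matched for 6 of the 8 genes. Capitals mark the letters GGGCGG, bound by Sp1 and its relatives, the CCAAT box, the letters TATAAA of the core promoter and the cyclic AMP response element TGACGTCA, searched on both strands. Fam20a lay at chr11:109722289-109722488, minus strand, Stim1 at chr7:102267569-102267768, plus strand, Orai1 at chr5:123014824-123015023, plus strand, and Slc24a4 at chr12:102128477-102128676, plus strand.
Fam20a: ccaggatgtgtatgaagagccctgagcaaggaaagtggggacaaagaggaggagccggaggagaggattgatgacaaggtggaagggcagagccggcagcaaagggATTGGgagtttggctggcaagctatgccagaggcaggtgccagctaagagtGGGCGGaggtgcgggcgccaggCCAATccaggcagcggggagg
Stim1: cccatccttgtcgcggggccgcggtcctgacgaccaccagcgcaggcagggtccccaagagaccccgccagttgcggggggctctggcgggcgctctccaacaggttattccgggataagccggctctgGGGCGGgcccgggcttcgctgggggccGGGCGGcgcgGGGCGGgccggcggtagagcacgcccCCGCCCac
Orai1: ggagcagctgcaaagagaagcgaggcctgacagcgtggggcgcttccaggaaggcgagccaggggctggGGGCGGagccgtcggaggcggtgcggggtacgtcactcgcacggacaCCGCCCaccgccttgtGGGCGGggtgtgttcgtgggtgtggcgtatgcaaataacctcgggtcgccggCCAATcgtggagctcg
Slc24a4: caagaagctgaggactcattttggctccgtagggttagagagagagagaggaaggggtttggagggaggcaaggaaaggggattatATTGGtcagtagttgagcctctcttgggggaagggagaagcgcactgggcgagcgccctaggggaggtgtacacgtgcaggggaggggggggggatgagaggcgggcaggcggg
GGGCGG matched 1 time in Fam20a, 4 times in Stim1, 3 times in Orai1 and 0 times in Slc24a4, and stood in 24.6% of 32851 promoters of the same length. CCAAT matched 2 times in Fam20a, 0 times in Stim1, 1 time in Orai1 and 1 time in Slc24a4, and stood in 28.4% of promoters. TATAAA, in 9.14% of promoters, and TGACGTCA, in 0.828%, matched in none of the 4. The windows were rich in G and C, at 61.5% in Fam20a, 76.5% in Stim1, 69% in Orai1 and 60.5% in Slc24a4. Of the genes not called, Cnnm4 held 2 matches to GGGCGG, and Slc4a4 held 1 in the first of its 2 promoters and 0 in the second, so these letters did not separate the genes that fell from the others. The matches describe the letters only.

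Calcium entry came first in the path. STIM1, a calcium sensor of the endoplasmic reticulum, opens the ORAI1 pore in the plasma membrane when stores run low, and loss of either gives enamel defects in people and mice. Stim1 (chr7:102267806-102437319) measured 125, 165 and 135 CPM in controls and 94.9, 62.4 and 81.6 CPM in mutants. Every mutant sample was below every control sample, which held for 16.3% of all genes tested. It was 1.78-fold lower, a log2 fold change of -0.83 (SE 0.25, edgeR adjusted p = 0.0936). It was -0.39 with the length and GC correction (SE 0.22, edgeR adjusted p = 0.465) and no longer called.

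Orai1 (chr5:123015074-123030456) measured 13.6, 16.9 and 15.3 CPM in controls and 7.64, 5.21 and 6.05 CPM in mutants, and the groups did not overlap. It was 2.43-fold lower, a log2 fold change of -1.28 (SE 0.51, edgeR adjusted p = 0.205). Under the length and GC correction it was -0.90 (SE 0.47, edgeR adjusted p = 0.416) and no longer called. The mutant values rested on 35, 61 and 60 counts against 467, 614 and 528 in controls. With 1 sample left out, Orai1 kept its call in 2 of 6 fits. It lost it without control 1, control 2, control 3 or mutant 2, at log2 fold changes of -1.36, -1.20, -1.28 and -1.17. With same-numbered samples fitted as a block Orai1 was also not called, at -1.29 (SE 0.69). An antisense gene, Gm2479, lies across Orai1 and a pseudogene, Gm18255, across Stim1 on the other strand, and whether counting used strand is not given in the sources used here.

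The relatives of both genes were not called. Stim2, a second store sensor, measured 30.4, 57.9 and 51.8 CPM in controls and 57.6, 47.6 and 67.3 CPM in mutants (log2 fold change 0.30, SE 0.30). Orai2 had a log2 fold change of -0.60 (SE 0.37) and Orai3 one of -0.0042 (SE 0.41). Per kb of transcript, the ratio of the Stim1 level to the Stim2 level was 5.92, 4.11 and 3.76 in controls and 2.38, 1.89 and 1.75 in mutants. The ratio of Stim1 to Orai1 was 5.47, 5.83 and 5.28 in controls and 7.42, 7.15 and 8.06 in mutants. Neither ratio overlapped between groups. Of 8 such ratios computed, chosen after the levels were seen, 3 did not overlap, while single genes did not overlap in 30.4% of those tested. The ratios are a description, and no p is given for pairs chosen in this way. Both Stim1 and Orai1 were lower in mutants, and among the 7 calcium entry genes they were the 2 that fell, with 0 that rose and a median log2 fold change of -0.41. Over all genes tested 8.92% were lower and 10.9% higher by this rule, and 7 genes are few to set against it. The others, Trpm7, a channel kinase, and Saraf, which closes the store-operated channel, had log2 fold changes of 0.40 (SE 0.28) and -0.41 (SE 0.24), and neither was called.

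**Figure D2:**
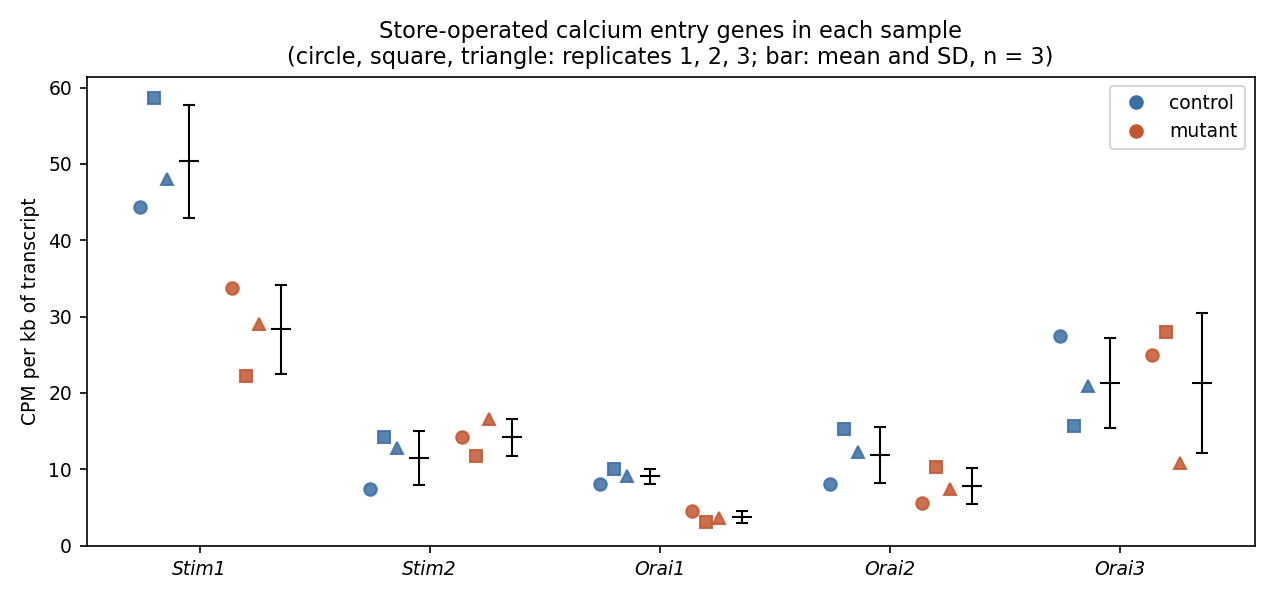
Level of the store-operated calcium entry genes (y axis, CPM per kb of transcript) in control and mutant samples, 1 symbol per replicate, with mean and SD at the side. Stim1 and Orai1 are lower in the 3 mutant samples than in the 3 controls, while Stim2, Orai2 and Orai3 overlap.

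Stores are emptied by the inositol trisphosphate receptors and filled by the SERCA pumps. Itpr1, Itpr2 and Itpr3 had log2 fold changes of -1.19, -0.54 and -0.92 and none of the 3 was called. Atp2a2, the SERCA pump of most cells, measured 235, 455 and 405 CPM in controls and 162, 181 and 213 CPM in mutants. It fell by 0.98 on the log2 scale (SE 0.30, edgeR adjusted p = 0.107), and its groups did not overlap.

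Calcium leaves the ameloblast toward the enamel through exchangers and pumps. Slc24a4 (chr12:102128733-102267091), the exchanger known for the maturation stage, measured 13.9, 67.9 and 33.2 CPM in controls and 29.9, 42.6 and 34.3 CPM in mutants. Controls spread 4.89-fold from lowest to highest and enclosed all mutant values. The log2 fold change was -0.10 (SE 0.52, edgeR adjusted p = 0.947) and was 0.70 (SE 0.47) without control 2 and mutant 1. An antisense gene, Gm16339, lies across it. No direction was therefore read for Slc24a4.

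Its relative Slc24a3 measured 63.3, 80.6 and 111 CPM in controls and 9.60, 20.5 and 27.9 CPM in mutants. This was 4.36-fold lower (log2 fold change -2.12, SE 0.42, edgeR adjusted p = 0.0422), with no overlap. Per kb, the ratio of Slc24a4 to Slc24a3 was 0.236, 0.906 and 0.321 in controls and 3.35, 2.24 and 1.32 in mutants, the third that did not overlap. Of the 9 genes of calcium extrusion, 2 fell and 0 rose, beside the same 8.92% lower and 10.9% higher over all genes. The other that fell was Atp2b4, a plasma membrane calcium pump, at -0.94 (SE 0.33, edgeR adjusted p = 0.149), which was no longer called without control 2 and mutant 1, at -0.66 (SE 0.39).

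Bicarbonate, proton and chloride transport buffers the enamel space. Slc4a4 (chr5:88886818-89239653) measured 47.9, 117 and 118 CPM in controls and 23.1, 49.1 and 98.7 CPM in mutants. Control 1 was below mutants 2 and 3, and the log2 fold change was -0.72 (SE 0.54, edgeR adjusted p = 0.530). With 1 sample left out it ranged from -1.39 without mutant 3, where it passed the rule for a fall, to -0.37 without mutant 1, and it was -0.18 without control 2 and mutant 1. With same-numbered samples fitted as a block it was -0.85 (SE 0.27, edgeR adjusted p = 0.157) and passed the rule. It also passed with the length and GC correction added to the block, at -0.79 (SE 0.26, edgeR adjusted p = 0.283). Slc4a2, a chloride bicarbonate exchanger of the same family, measured 75.4, 142 and 145 CPM in controls and 42.6, 49.6 and 49.4 CPM in mutants, a log2 fold change of -1.35 (SE 0.29, edgeR adjusted p = 0.0464).

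Of the 16 genes of this group, 3 fell and 3 rose, with a median log2 fold change of -0.28, beside 8.92% lower and 10.9% higher over all genes tested. Slc4a9 and Slc26a4 were at 0 in every mutant sample, which made them at least 23.6-fold and 8.13-fold lower with 3 counts taken as the limit over the mutant group. Both were scarce in controls, with 285 and 98 counts over 3 samples. They passed the filter on low counts through the deeper controls alone, so they could only be called as lower. Those that rose were Car6, a secreted carbonic anhydrase, and the anion exchangers Slc26a7 and Slc26a1. Without control 2 and mutant 1, Slc26a1 was no longer called, at 1.03 (SE 0.54) against 1.25 (SE 0.52) with all samples. Car6 measured 60.3, 80.3 and 63.9 CPM in controls and 118, 145 and 121 CPM in mutants (log2 fold change 0.91, SE 0.22, edgeR adjusted p = 0.0506). Slc26a7 measured 37.2, 58.9 and 52.0 CPM in controls and 72.9, 67.9 and 142 CPM in mutants (0.93, SE 0.34, edgeR adjusted p = 0.171), and was not called with the length and GC correction, at 0.51 (SE 0.35). In both the mutant samples were all above the controls, which held for 14.1% of genes tested.

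**Figure D3:**
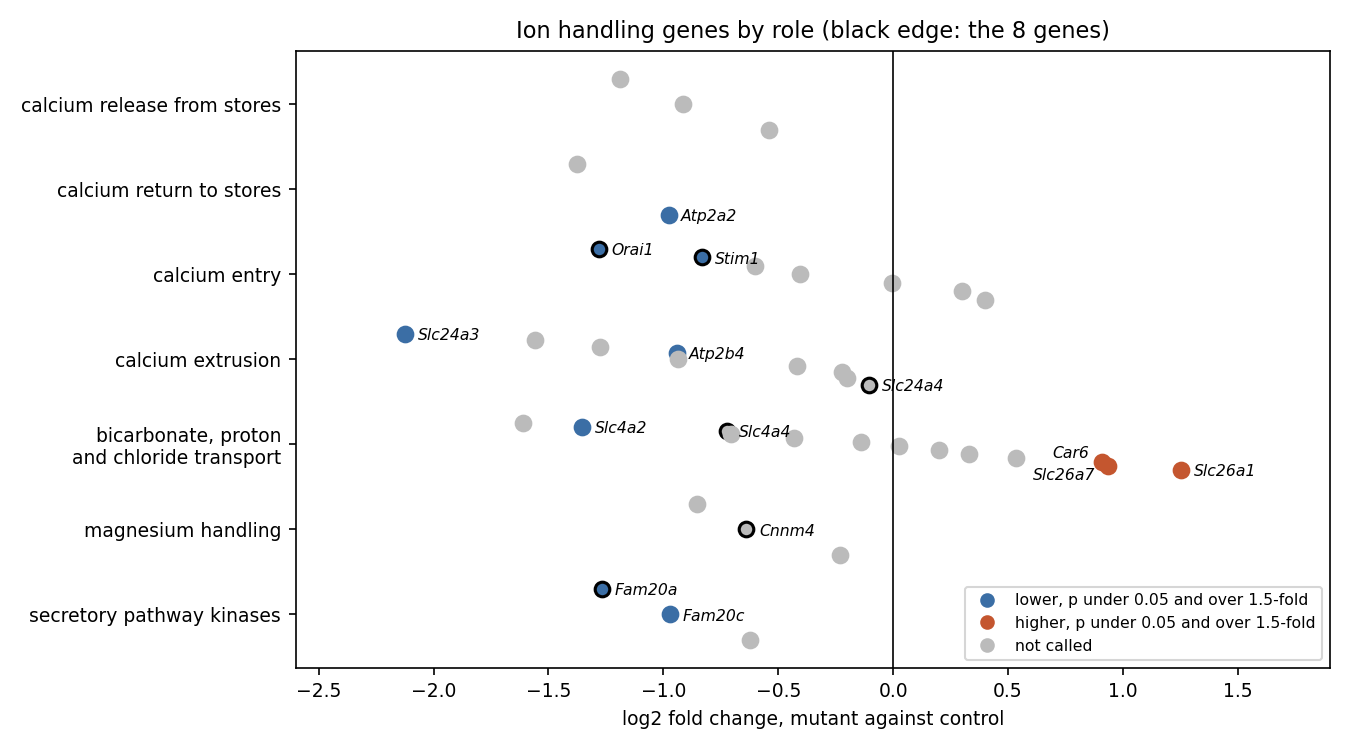
Log2 fold change of mutant against control (x axis) for each ion handling gene tested, by role (rows), coloured by call, with those of the 8 genes that have a role shown here edged in black. Slc4a9 and Slc26a4, at 0 in all mutant samples, have no finite change and are left out. Genes that fell and none that rose stand in the rows of calcium entry (2 of 7), return (1 of 2), extrusion (2 of 9) and secretory pathway kinases (2 of 3). The bicarbonate row holds both, and those of calcium release and magnesium hold no call. Over all genes tested 8.92% were lower and 10.9% higher by this rule, and most rows hold few genes.

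Magnesium export came next. Cnnm4 (chr1:36471620-36508764), whose loss gives enamel defects with cone-rod dystrophy, measured 47.5, 83.3 and 53.5 CPM in controls and 27.7, 49.9 and 40.4 CPM in mutants. Mutant 2 was above control 1, and the log2 fold change was -0.64 (SE 0.33, edgeR adjusted p = 0.331). It was -0.084 (SE 0.22) with the length and GC correction, -0.36 without control 2 and -0.17 without control 2 and mutant 1. Its relatives Cnnm2 and Cnnm3 had log2 fold changes of -0.85 (SE 0.50) and -0.23 (SE 0.45), and none of the 3 was called.

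Wdr72 (chr9:74110356-74283308), needed for endocytosis of matrix protein fragments in maturation, was the scarcest of the 8. It measured 3.70, 12.8 and 3.09 CPM in controls and 0, 5.29 and 12.6 CPM in mutants, where 0 counts in mutant 1 allow up to 0.655 CPM. The log2 fold change was -0.12 (SE 1.34, edgeR adjusted p = 0.976) and 1.39 (SE 0.75) without control 2 and mutant 1. The groups overlapped, controls alone spread 4.15-fold from lowest to highest, and no change was detectable in either direction.

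Fam20a (chr11:109669749-109722279) acts with Fam20c, the kinase that phosphorylates enamel matrix proteins in the secretory pathway. It measured 104, 177 and 166 CPM in controls and 68.3, 64.2 and 53.1 CPM in mutants, and the groups did not overlap. It was 2.41-fold lower, a log2 fold change of -1.27 (SE 0.27, edgeR adjusted p = 0.0464). It met the rule for a fall in 18 of 18 alternatives, and its adjusted p was under 0.05 in 5 of the 18 and not in 13. With the length and GC correction the log2 fold change was -0.76 (edgeR adjusted p = 0.123). Fam20c fell by 0.97 (SE 0.27, edgeR adjusted p = 0.0780), from 95.6, 136 and 142 CPM in controls to 61.5, 49.2 and 79.7 CPM in mutants, and with the length and GC correction it stood at -0.058 (SE 0.26). Fam20b, a xylose kinase of proteoglycan synthesis, was also lower in every mutant sample (log2 fold change -0.62, SE 0.28) and did not pass (edgeR adjusted p = 0.258). Per kb, the ratio of Fam20a to Fam20c was 1.53, 1.84 and 1.65 in controls and 1.56, 1.84 and 0.939 in mutants, which overlapped.

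Fam83h (chr15:76001093-76014336), a frequent gene of dominant amelogenesis imperfecta, measured 9.79, 21.5 and 24.6 CPM in controls and 3.27, 12.0 and 10.3 CPM in mutants. The log2 fold change was -1.11 (SE 0.63, edgeR adjusted p = 0.381), and control 1 lay below mutants 2 and 3. With the length and GC correction it was -0.33 (SE 0.52), and without control 2 and mutant 1 it was -0.63 (SE 0.55). Mutant 1 rested on 15 counts. The gene K230010J24Rik overlaps it on the other strand. Fam83g and Fam83d, of the same family, both fell. On the log2 scale Fam83g fell by 1.46 (SE 0.42, edgeR adjusted p = 0.0872) and Fam83d by 3.12 (SE 1.16, edgeR adjusted p = 0.177). Fam83d rested on 0, 10 and 41 counts in mutants, against 487, 436 and 652 in controls. With the length and GC correction Fam83g was at -0.80 (SE 0.35) and no longer called.

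Over the families of the 8, 21 relatives were tested, of which 7 fell, 0 rose and 14 did not pass, beside 8.92% lower and 10.9% higher over all genes, with a median log2 fold change of -0.97. They were Slc24a3, Slc4a2, Slc4a9, Slc4a11, Fam20c, Fam83d and Fam83g, and 4 of them passed at an adjusted p under 0.05 (Slc24a3, Slc4a2, Slc4a9 and Slc4a11), beside 3.06% of all genes that were lower by that rule. Slc4a11, like Slc4a9, was at 0 in every mutant sample, and it was at least 13.4-fold lower. Both passed the filter on low counts through the deeper controls alone, so they could only be called as lower. They are counted among the falls here and in the fits below, and their calls are not read as a fall of the families. Over 29 other genes of calcium, bicarbonate and proton transport that were tested, 3 fell, 3 rose and 23 did not pass, with a median of -0.40, so that the share each way was close to that over all genes tested (8.92% lower and 10.9% higher). Without control 2 and mutant 1, 3 fell and 4 rose, beside 10.1% lower and 10.8% higher over all genes in that fit, at a median of -0.025. Atp2a2, at -0.71 (SE 0.32), Atp2b4 and Slc26a1 were no longer called. Of the 21 relatives 7 fell there, beside the same 10.1%, at a median of -0.59, and none passed when adjusted. With the length and GC correction 5 of the 21 relatives fell, beside 9.09% over all genes, at a median of -0.43, and none passed when adjusted.

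Among the other genes of inherited enamel defects, 7 of 24 fell, 1 rose and 16 did not pass, beside 8.92% lower and 10.9% higher over all genes tested, with a median log2 fold change of -0.91. This list shares members with the transport list, Slc13a5 among them, and with the ameloblast markers described below, Amtn among them. Without the ameloblast markers 7 of 17 fell and 0 rose, at a median of -0.95. Relt, a receptor of the tumour necrosis factor family, measured 85.2, 65.2 and 94.4 CPM in controls and 35.8, 31.9 and 43.3 CPM in mutants (log2 fold change -1.14, SE 0.25, edgeR adjusted p = 0.0464). Lamb3, a chain of the laminin that anchors ameloblasts to basement membrane, measured 384, 634 and 870 CPM in controls and 182, 242 and 278 CPM in mutants (-1.43, SE 0.35, edgeR adjusted p = 0.0513). Lama3, another chain of this laminin, fell by 1.40 on the log2 scale, and Acp4, Ltbp3 and Pex6 were also among those that fell. The gene that rose was Amtn. Without control 2 and mutant 1, 5 of the 24 fell, beside 10.1% of all genes. Among those no longer called were Lama3 at -1.13 (SE 0.50), Acp4 at -1.12 (SE 0.48) and Ltbp3 at -0.52 (SE 0.24). With all samples Acp4 was at -1.26 (SE 0.44) and Ltbp3 at -0.84 (SE 0.30). With the length and GC correction 7 fell and none rose, beside 9.09% lower and 6.41% higher over all genes, with Relt at -1.40 (SE 0.21, edgeR adjusted p = 0.0299) and Lamb3 at -0.89 (SE 0.29). Acp4, Ltbp3 and Pex6 were not called there, at -0.91 (SE 0.43), -0.18 (SE 0.24) and -0.70 (SE 0.54).

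Transcripts of ameloblasts were abundant in all 6 samples, and none of their 8 defining markers was at 0 in any sample. Summed, they made up 85940, 97977 and 120410 CPM in controls and 35141, 34720 and 74861 CPM in mutants, with every mutant below every control. The most abundant was Amelx, the main enamel matrix protein, at 50951, 60146 and 66940 CPM in controls and 18669, 15184 and 42259 CPM in mutants (log2 fold change -1.23, SE 0.67, edgeR adjusted p = 0.370). Fewer ameloblasts and less RNA per ameloblast cannot be told apart in such bulk samples.

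The markers did not move one way. The matrix genes Ambn and Enam had log2 fold changes of -1.13 (SE 0.57) and -1.08 (SE 0.56) and were not called. The matrix proteases Mmp20, of the secretory stage, and Klk4, of maturation, stood at -0.64 (SE 0.36) and -0.0007 (SE 0.26). The maturation genes Odam and Amtn rose and 0 of the 8 markers fell, beside 10.9% higher and 8.92% lower over all genes tested. Odam measured 454, 776 and 607 CPM in controls and 1168, 2086 and 2958 CPM in mutants (1.76, SE 0.42, edgeR adjusted p = 0.0466), and Amtn 1078, 1141 and 1188 CPM in controls and 1428, 2006 and 2970 CPM in mutants (0.91, SE 0.35, edgeR adjusted p = 0.190). With the length and GC correction neither rise passed, at 0.81 (SE 0.50) for Odam and 0.099 (SE 0.38) for Amtn. Of the 8 markers 4 fell and 0 rose in that fit, beside 9.09% lower and 6.41% higher over all genes. Without control 2 and mutant 1 both rose, by 2.24 (SE 0.32) and 1.13 (SE 0.30), and 0 fell, beside 10.8% higher and 10.1% lower over all genes. Odaph stood at 1.37 (SE 1.02), from 2.18 to 26.6 CPM in mutants.

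Other cell types were read in the same way. Dental epithelium genes, led by Krt5, summed to 2169, 2323 and 4454 CPM in controls and 2237, 2028 and 2149 CPM in mutants, and 1 of 10, Esrp1, fell, close to the 8.92% over all genes. Odontoblast genes, led by Dspp, summed to 2877, 8677 and 1997 CPM against 2722, 4214 and 3999 CPM, and mesenchymal genes, led by Col1a1, to 22121, 55774 and 27082 CPM against 25266, 19014 and 25044 CPM, with none called. Endothelial genes, led by Cdh5, summed to 146, 243 and 153 CPM in controls and 126, 134 and 118 CPM in mutants, with none called. Macrophage genes, led by Csf1r, summed to 116, 179 and 52.7 CPM in controls and 97.6, 75.3 and 101 CPM in mutants. Schwann cell genes, led by Mbp, summed to 46.7, 42.5 and 28.7 CPM in controls and 99.5, 55.9 and 24.0 CPM in mutants. Neither list had a gene called, and Itgam, Sox10 and S100b were among the genes at 0 in at least 1 sample. The part of these tissues in the fall of Fam20a, Stim1 and Orai1 was not tested. Without control 2 and mutant 1 the same 3 genes passed the unadjusted rule, beside 10.1% of all genes lower in that fit. None of the 8 then passed at an adjusted p under 0.05, and their median log2 fold change was -0.40.

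Transcript length moved with the comparison. Among protein-coding genes in 4 groups of 3451 by mean transcript length, the median log2 fold change was 0.29 in the shortest and -0.096, -0.23 and -0.28 in the next 3. Orai1 stood in the second of these, Fam20a, Stim1, Slc24a4 and Slc4a4 in the third, and Cnnm4, Fam83h and Wdr72 in the longest, where 9.56%, 10.9% and 10.5% of genes fell. Under the length and GC correction Fam20a still passed the rule for a fall, and Stim1 and Orai1 did not, beside 9.09% of all genes lower in that fit.

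**Figure D4:**
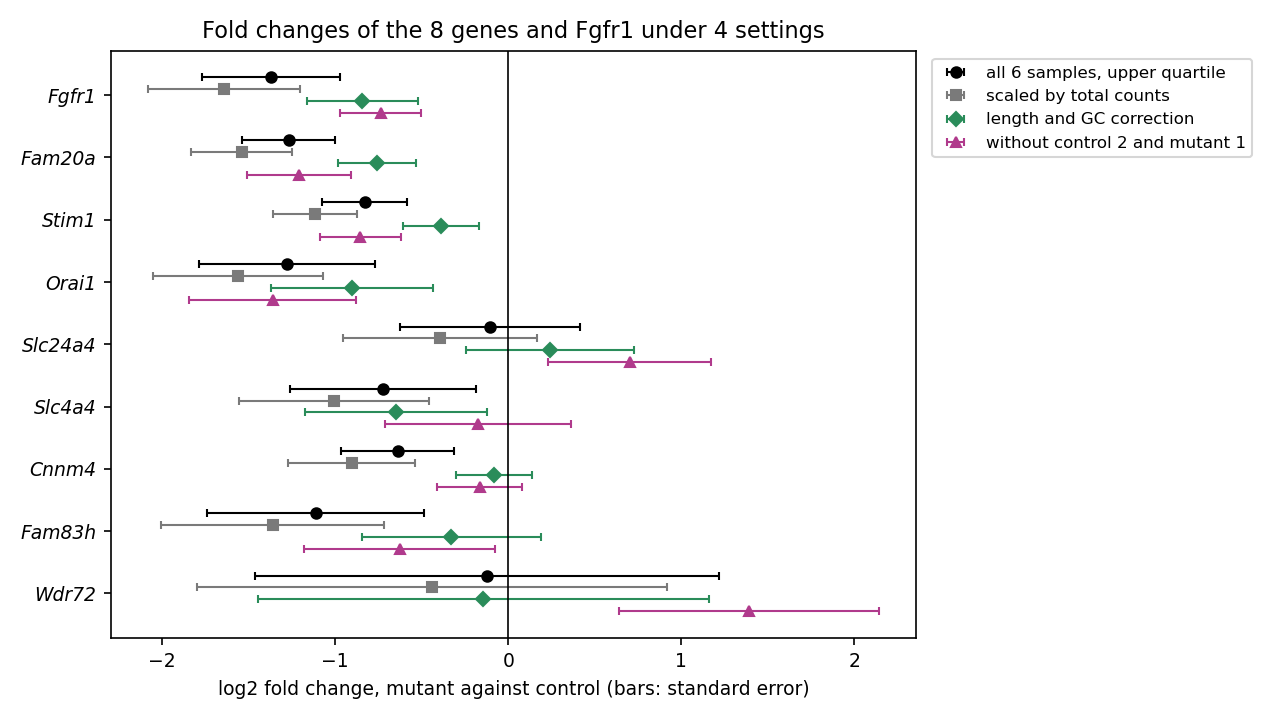
Log2 fold change of mutant against control (x axis, bars are standard errors) for Fgfr1 and the 8 genes under 4 settings. Fam20a, Stim1 and Orai1 lie below 0 under all 4, the length and GC correction moves Stim1 from -0.83 to -0.39, and Slc24a4 and Wdr72 lie on both sides of 0.

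The 8 genes differed in level. Per kb of transcript, the order in controls was Fam20a at 58.6 ± 15.5 CPM per kb (SD, n = 3), Stim1 at 50.3 ± 7.42, Slc4a4 at 30.5 ± 13.0, Slc24a4 at 14.1 ± 10.1, Cnnm4 at 13.5 ± 4.22, Orai1 at 9.08 ± 0.974, Fam83h at 4.12 ± 1.73 and Wdr72 at 1.26 ± 1.05. Neighbours whose samples overlapped were Fam20a and Stim1, Slc4a4 and Slc24a4, Slc24a4 and Cnnm4, and Fam83h and Wdr72. In mutants Stim1 came first at 28.3 ± 5.81 CPM per kb, with Fam20a next at 24.4 ± 3.10, and these overlapped, as did Fam20a and Slc4a4, Slc4a4 and Slc24a4, and Fam83h and Wdr72. The other 6 kept their order, from Slc4a4 at 18.4 ± 12.4 and Slc24a4 at 13.1 ± 2.38 to Wdr72 at 1.15 ± 1.22. Orai1, at 3.75 ± 0.736, was above Fam83h, at 1.89 ± 1.03, in every sample of both groups.

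Across samples the 8 varied together in part. Their mean log2(CPM + 1), centred on each gene's own mean, was -0.15, 0.89 and 0.43 in controls and -0.91, -0.22 and -0.026 in mutants, so that control 2 was highest and mutant 1, the shallowest sample, lowest. Summed, the 8 made up 365, 661 and 549 CPM in controls and 255, 291 and 337 CPM in mutants. Cnnm4 lay nearest to the mean profile, with a root-mean-square difference of 0.203 on the log2 scale over 6 samples, and Wdr72 farthest, at 0.937. Of 9700 genes with a mean of at least 10 CPM, those nearest to the mean profile were Ctif (0.090), Asxl2 (0.101), Herc1 (0.102), Zswim8 (0.107) and Clstn1 (0.110). None of these 5 had an edgeR adjusted p under 0.05, the lowest being 0.183 for Clstn1.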

How the data were processed

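Bulk RNA sequencing of proximal incisor from 3 control and 3 mutant samples was analysed. The values deposited by the authors are estimated counts for each gene, without normalization, from single-end reads that they trimmed with Partek Flow and mapped to mm10 (GRCm38). The submitters' processing notes name TopHat2 2.0.8. The counting model, annotation and strand setting are not given in the sources used here. A deposited table of the authors' own comparison (p-values, ratios, fold scores and group means) was not used.

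Counts were rounded to whole numbers and fitted with edgeR 4.0.16 in R 4.3.3 (quasi-likelihood test, two-sided, upper-quartile scaling, default filter on low counts at 10 per sample and 15 in total, group as the only term, Benjamini-Hochberg adjustment over 15826 genes). SE is the log2 fold change divided by the square root of F. Correction for length and GC content used offsets fitted on protein-coding genes. On simulated counts for 15606 genes, 98.5% of 200 genes changed 3-fold between mutant and control were recovered, with 5 false calls. The simulation gave every gene the same dispersion, held no tissue or length differences and changed only genes averaging over 50 counts. These figures therefore do not give the recovery or false calls in the real samples, nor for smaller changes or scarcer genes. Positions, length and GC content came from GENCODE annotation of GRCm38 (18637 symbols matched directly, 214 by synonym, 209 not).

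Alternatives were TMM, total-count scaling, DESeq2 1.42.0, limma 3.58.1 (voom), other filters, thinned control counts, protein-coding genes alone, a replicate block, a length and GC correction, and leaving out samples. Limits of 3 counts cover counting error only. The genes and lists were chosen with earlier results of these data known. Named were Fgfr1, Gli1, the 8 genes, all 8 ameloblast markers, the most abundant gene of each cell type list, up to 2 genes each way by smallest p in each other list, and the 5 genes nearest to the mean profile. Other relatives, transport genes and list members named in the text, and the 8 ratios, were chosen after their values were seen. Some genes of the lists are not reported here by name.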

Additional observations from a re-analysis of the deposited data

How the results depend on the processing

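Fam20a, Stim1 and Orai1, the 3 of 8 genes that fell, were followed through 18 alternatives, of which 1, without control 2 and mutant 1, was chosen after seeing the data. The number that fell was 1 with the length and GC correction, beside 9.09% of all genes lower in that fit. It was 2 to 4 with 1 sample left out, and within 1.5 times the main count in all others, and 0 rose under any. The share of all genes that were lower ran from 4.97% without control 3 to 16.5% without mutant 2, against 8.92% in the main comparison. The number with an adjusted p under 0.05 was 1 in the main comparison, 2 with total counts and with DESeq2, and 0 without the filter, with genes averaging 50 counts or more, with thinned controls, with protein-coding genes only, with the length and GC correction, and without control 2 and mutant 1, and 0 to 1 with 1 sample left out. The median log2 fold change of the 8 ranged from -1.22 without mutant 3 to -0.36 with the length and GC correction. Fam20a was called in 18 of 18, with adjusted p from 0.000737 (DESeq2) to 0.301, under 0.05 in 5 of 18. Stim1 was called in 16 of 18 (adjusted p 0.0272 to 0.519) and Orai1 in 10 of 18 (0.0647 to 0.608). Cnnm4 passed the rule with total counts and with the block, and ranged from -0.91 with total counts to -0.084 with the length and GC correction. Fam83h ranged from -1.45 to -0.33 and Slc4a4 from -1.39 to -0.18. Slc24a4 reversed to 0.22 with limma-voom, 0.24 with the length and GC correction, 0.60 without control 2 (from -0.51 to 0.60 with 1 sample left out) and 0.70 without control 2 and mutant 1. Wdr72 reversed to 0.82 without control 2, 0.43 without mutant 1 (from -1.27 to 0.82 with 1 sample left out) and 1.39 without both. The cause was not tested. Total-count scaling moved the median of all genes to -0.30 and TMM to -0.13, from -0.040, and the calls over all genes from 1411 lower and 1726 higher to 2335 and 1253 with total counts. Counts were lowest for Wdr72, Orai1 and Fam83h, at 0, 35 and 15 counts in mutant 1.

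The labels number replicates 1 to 3 in both groups, and the study's methods mention pairs without saying what pairs them. Names in brackets in the same titles carry other numbers, which differ between same-numbered samples and in part recur in both groups. What these numbers stand for is not given in the sources used here, and only the replicate numbers were examined as pairs. Deviations of same-numbered samples correlated at 0.0742, 0.0228 and 0.0883, all under 0.1, so the numbers were not used as pairs in the main comparison. Whether the samples share more than a number was not settled. With a replicate block 4 of the 8 fell (Cnnm4, Fam20a, Slc4a4 and Stim1, without Orai1), beside 7.84% of all genes lower in that fit. Of the 8, 0 passed at an adjusted p under 0.05, and over all genes 508 passed against 1074 in the main comparison. With the block and the length and GC correction, 2 fell (Fam20a and Slc4a4), beside 7.11% of all genes lower in that fit, and 0 passed when adjusted. Under the block Slc24a4 was at 0.15, and 0.46 with the correction.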
